A study of Mus musculus with 5 samples.

Results

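Cells with a high level of Atoh1 together with Fst were picked out of single-cell expression data from the embryonic mouse cerebellum. A cell belonged to them if its Atoh1 value was 1.0 or more on the deposited natural log scale, Barhl1 and Fst were above 0, and Otx2 and Eomes were both at 0. This rule held for 706 of the 6987 cells of the series, all of them among the 4311 cells of the 4 libraries titled RL (rhombic lip). They are called Atoh1/Fst cells here. The values of these 5 genes chose the cells, so their own differences are a description and carry no test. Their working name calls them granule progenitors. The granule cell progenitor genes went in both directions (given with the gene lists), so the cells are called by their leading genes.

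The rhombic lip is the dorsal rim of the hindbrain that gives rise to the glutamatergic neurons of the cerebellum. Atoh1, a basic helix-loop-helix transcription factor, is required for these lineages, and granule cell progenitors keep expressing it while they divide over the cerebellar surface. Fst encodes follistatin, a secreted protein that binds activins and keeps them from their receptors. Otx2 is a homeobox factor of the roof plate, of a part of the rhombic lip and of the unipolar brush cell lineage, and Eomes is a T-box factor known as a marker of unipolar brush cells.

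The series holds 5 libraries of mouse cerebellum made with 10x Chromium 3′ kits. They fall into 1 library titled EomesCreER e16, 2 RL e14 libraries and 2 RL e13 libraries. The RL titles also carry UT, which is not explained, and the labels used here name no genotype, strain, treatment or way of dissecting or selecting cells. EomesCreER names a line with Cre under the control of Eomes. The age tag of RL e13 replicate 2 reads e14, against e13 in the title. Replicates are libraries, and nothing says that they came from separate animals. The 4 RL libraries held 706 to 1818 cells with medians of 15855 to 19970 UMIs per cell (unique molecular identifiers, which count molecules), and the e16 library 2676 cells with a median of 10346. In the RL libraries 3 barcode sequences occurred in more than 1 library. A level in CPM is the mean, over the cells of a class, of UMIs per 1000000 of that cell. Values per library come in the order RL e14 replicates 1 and 2, then RL e13 replicates 1 and 2.

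Atoh1/Fst cells were a common class in 3 of the RL libraries and rare in the remaining one. They numbered 187 of 1046 cells (17.9%) in RL e14 replicate 1 and 110 of 741 (14.8%) in RL e14 replicate 2. RL e13 replicate 2 held 395 of 1818 (21.7%) and RL e13 replicate 1 only 14 of 706 (1.98%). RL e13 replicate 1 stood far below the rest, and it also held few cells with both Atoh1 and Barhl1 UMIs (69, against 468 to 1042 in the other RL libraries). As a share of those cells, Atoh1/Fst cells made up 27.4% of RL e14 replicate 1 (95% Wilson interval 24.2 to 30.8) and 23.5% of RL e14 replicate 2 (19.9 to 27.6). The shares were 20.3% in RL e13 replicate 1 (12.5 to 31.2) and 37.9% in RL e13 replicate 2 (35.0 to 40.9). Only the interval of RL e13 replicate 2 lay above those of all other RL libraries, and intervals here cover counting error only. In the e16 library 0 of 253 cells with Atoh1 and Barhl1 UMIs met the rule, which allows a share of up to 1.19%, while 245 of them had Otx2 UMIs.

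By title, the e14 libraries averaged a share of 25.4% ± 2.74 of the cells with Atoh1 and Barhl1 UMIs, and the e13 libraries 29.1% ± 12.5 (SD over 2 libraries each, exact two-sided permutation p = 1). The smallest p that 2 libraries against 2 allow is 0.333, so this design cannot show a difference at 0.05. Placed at e14, as the age tag has it, RL e13 replicate 2 moved the mean to 29.6% ± 7.45 in 3 libraries at e14 and 20.3% in 1 library at e13 (exact p = 0.5). For this denominator the sign of the difference between ages thus turned with that library's label. As a share of all cells of a library, e14 exceeded e13 by 4.51 percentage points by title and 16.2 by age tag. The direction by title thus depended on the denominator.

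**Figure D1:**
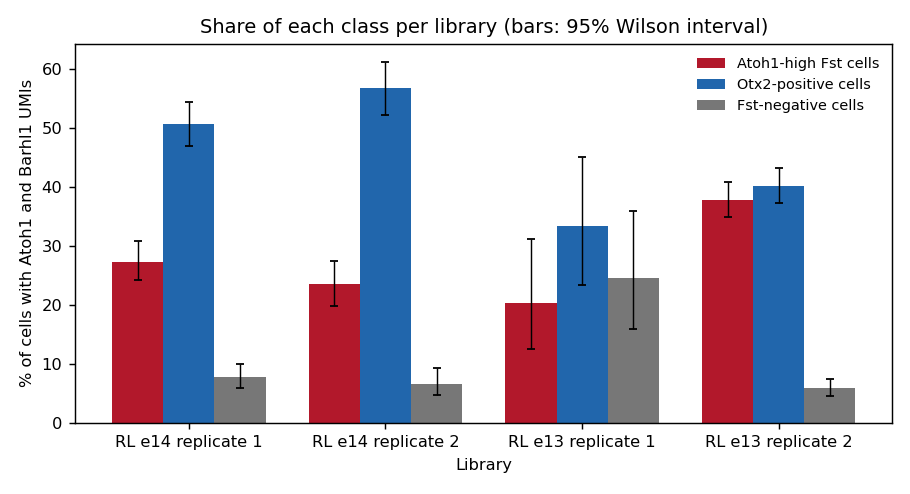
Share of 3 classes among the cells with Atoh1 and Barhl1 UMIs (vertical axis, percent) in each RL library (horizontal axis), with 95% Wilson intervals. Atoh1/Fst cells (red) ranged from 20.3% to 37.9%, Otx2-positive cells (blue) were the most frequent class in each library, and Fst-negative cells (grey) were the least frequent except in RL e13 replicate 1.

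The rule genes themselves are given as a description. Atoh1 averaged 482, 488, 599 and 505 CPM, Barhl1 415, 460.1, 375 and 396 CPM and Fst 439.7, 401, 223 and 522 CPM in Atoh1/Fst cells. A cell held a median of 8 Atoh1 UMIs (range 2 to 28), 7 Barhl1 UMIs (1 to 33) and 7 Fst UMIs (1 to 56), so most cells lay well above a lone molecule of each. In mm10 coordinates Fst spans chromosome 13 from 114452290 to 114458951, and Pvalb, described next, spans chromosome 15 from 78191114 to 78206400. Near the Atoh1 threshold, the 69 Atoh1/Fst cells with ln values of 1.0 to 1.2 averaged 206 CPM of Atoh1 and 380.0 CPM of Fst. The 60 cells with Atoh1 at 0.8 to 1.0 that met every other condition averaged 146 and 368 CPM. Fst did not step down at that threshold. 63 Atoh1/Fst cells had 1 Fst UMI. Just outside the Otx2 condition, 95 cells with 1 Otx2 UMI averaged 402 CPM of Fst and 138 cells with 2 or more averaged 276 CPM, against 476 CPM over all 706 Atoh1/Fst cells. Fst was thus lower in the border cells with more Otx2 UMIs.

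In 3 of the RL libraries Fst was most frequent where both Otx2 and Eomes were at 0. Among cells past the Atoh1 threshold with Barhl1 UMIs, those with both at 0 had Fst UMIs in 77.9%, 78.0%, 45.2% and 86.6% of cases. With Otx2 UMIs and Eomes at 0 the shares were 41.4%, 54.3%, 46.2% and 49.4%, and with UMIs of both they were 11.4%, 13.95%, 25% and 21.4%. The few cells with Eomes UMIs and Otx2 at 0 (15, 10, 7 and 43) had Fst UMIs in 53.3%, 20%, 57.1% and 67.4% of cases. RL e13 replicate 1, with 31 cells in the first class, 13 with Otx2 alone and 8 with both, went another way, with its lowest share where both had UMIs and its highest where Eomes alone had them. With every cell thinned to 8000 UMIs, the shares were 68.5%, 66.4%, 36.0% and 73.3% with both at 0, and 25.9%, 34.5%, 0% (0 of 4 cells) and 30.7% with Otx2 alone. With both they were 4.35%, 6.90%, 0% (0 of 3 cells) and 13.8%. Cells with neither Atoh1 nor Barhl1 UMIs had Fst UMIs in 3.40%, 6.80%, 7.32% and 5.91% of thinned cells and in 5.16%, 14.2%, 13.8% and 9.27% unthinned. Free RNA and transcripts of these cells' own cannot be told apart in such shares.

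Of the 3 other genes that mark the class by name, only Pvalb set Atoh1/Fst cells apart from both neighbouring classes. Pvalb encodes parvalbumin, a calcium-binding protein best known from GABAergic interneurons and Purkinje cells. It stood at 1138, 1477, 541 and 1179 CPM in Atoh1/Fst cells, against 97.1, 233, 29.3 and 127 CPM in Otx2-positive cells (Atoh1, Barhl1 and Otx2 above 0, 1054 cells). In Fst-negative cells, which met the rule except that Fst was at 0 (162 cells), it stood at 627, 461, 102 and 366 CPM. Within every library Atoh1/Fst cells were the highest of the 3 classes, and over libraries their range overlapped that of Fst-negative cells only through RL e13 replicate 1. Thinned to 8000 UMIs, 88.6%, 90.9%, 61.5% and 90.8% of Atoh1/Fst cells held Pvalb UMIs, against 22.4%, 35.98%, 21.7% and 30.3% of Otx2-positive cells and 54.7%, 53.3%, 18.8% and 60.0% of Fst-negative cells. Unthinned, the shares were 93.05%, 95.5%, 85.7% and 95.2%, against 33.5%, 47.7%, 26.1% and 42.7% and 66.04%, 74.2%, 23.5% and 73.8%. Cells with neither Atoh1 nor Barhl1 held Pvalb UMIs in 4.08%, 11.7%, 6.48% and 8.18% thinned and 5.81%, 15.8%, 8.92% and 11.9% unthinned. Median depths were 18559 UMIs in Atoh1/Fst cells, 19344 in Otx2-positive cells, 15993 in Fst-negative cells and 15959 in cells with neither Atoh1 nor Barhl1.

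Gadd45g, a growth arrest gene of differentiating progenitors, stood at 562, 559.5, 366 and 792 CPM in Atoh1/Fst cells and at 416, 450.4, 621 and 492 CPM in Otx2-positive cells. Fst-negative cells had 648, 585, 1174 and 869 CPM, more than Atoh1/Fst cells in each library. Dll1, which encodes a Notch ligand, was low throughout, with 25.8, 24.2, 17.6 and 50.6 CPM in Atoh1/Fst cells, 18.6, 19.5, 42.8 and 30.9 CPM in Otx2-positive cells and 25.6, 82.3, 154 and 63.3 CPM in Fst-negative cells. The classes overlapped for both genes. Dll1 UMIs were found in 15.7%, 11.8%, 15.4% and 25.4% of thinned Atoh1/Fst cells and 21.9%, 25.5%, 14.3% and 42.8% unthinned, against 4.08%, 7.77%, 8.73% and 6.14% and 5.16%, 11.7%, 13.8% and 9.70% of cells with neither Atoh1 nor Barhl1. UMIs of all 3 markers were found in 18.2%, 22.7%, 14.3% and 41.0% of Atoh1/Fst cells, against 6.36%, 12.4%, 13.04% and 15.99% of Otx2-positive cells. Fst-negative cells held all 3 in 18.9%, 25.8%, 17.6% and 24.6%, more than Atoh1/Fst cells in each library except RL e13 replicate 2. These 3 genes were picked from the same data, so no test is given for them.

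**Figure D2:**
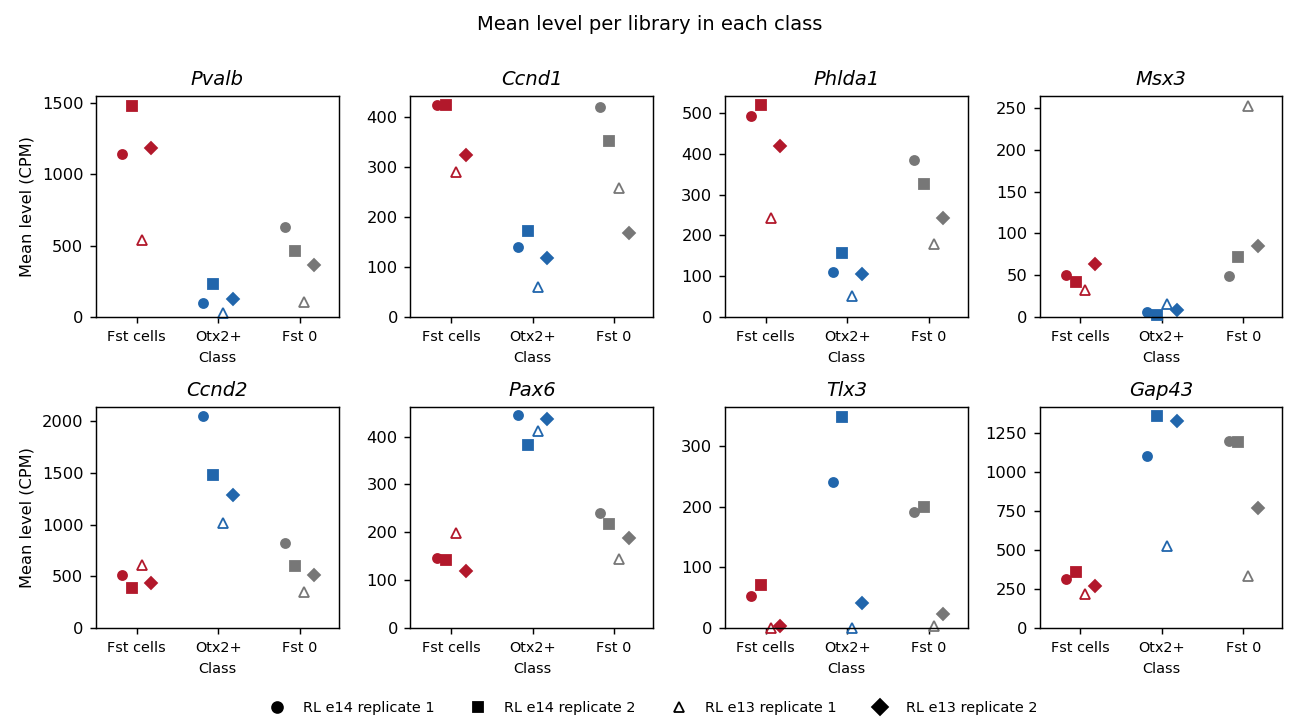
Mean level in CPM (vertical axes, from 0) of 8 genes in Atoh1/Fst cells (red), Otx2-positive cells (blue) and Fst-negative cells (grey), with 1 symbol per RL library and open triangles for RL e13 replicate 1, which was left out of the fits. Pvalb separated Atoh1/Fst cells from both other classes within each library, Ccnd1, Phlda1 and Pax6 separated them from Otx2-positive cells in all 4 libraries, and Msx3 reached 252 CPM in the Fst-negative cells of RL e13 replicate 1.

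The first comparison set Atoh1/Fst cells against the Otx2-positive cells of the same libraries. Atoh1/Fst cells had more Msx3, Prss23, Cdhr1, Bcas1, Phlda1 and the cyclin gene Ccnd1, and less Cartpt, Neurod1, Tlx3, Ebf1, Pax6, Gap43, Stmn2 and the cyclin gene Ccnd2. Genes of neuronal differentiation and proneural factors were mostly lower. Over 8146 genes tested in 3 libraries, 731 were higher (8.97%) and 795 lower (9.76%), 18.7% in all. The counts of list genes in this comparison are to be read beside these shares. RL e13 replicate 1, with 14 Atoh1/Fst cells, did not enter the fit, and its values are printed beside the rest where levels per library are given. Genes given by a log2 difference alone are described over the 3 fitted libraries, and some of them went the other way in RL e13 replicate 1. The test was limma on log2(CPM + 5) with the library as a block and Benjamini-Hochberg adjusted p under 0.05, and a log2 difference on this scale understates changes of low genes. With RL e13 replicate 1 added, 148 genes were higher and 185 lower, and without the library block 195 and 267. Otx2-positive cells were not matched for Atoh1 (375, 328, 629 and 395 CPM), and the classes were chosen by genes measured in the same cells, so the tests describe these classes.

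Msx3, a homeobox gene of the dorsal neural tube, stood at 50.5, 42.2, 32.3 and 63.7 CPM in Atoh1/Fst cells, against 5.36, 2.53, 16.02 and 7.87 CPM in Otx2-positive cells, with no overlap between the classes. Its log2 difference was 2.50 ± 0.11 (SE, n = 3 libraries, limma with Benjamini-Hochberg adjustment, adjusted p = 1.6e-08). Cells with neither Atoh1 nor Barhl1 carried more of it, 397, 459.5, 471 and 410.1 CPM. Prss23, which encodes a serine protease, stood at 91.4, 99.01, 21.3 and 90.7 CPM, against 10.5, 19.1, 11.9 and 16.9 CPM (limma 2.29 ± 0.11, adjusted p = 3.7e-08). The classes did not overlap for it. Cdhr1, a cadherin gene known from photoreceptors, stood at 119, 139.9, 114 and 98.5 CPM, against 27.9, 27.7, 25.6 and 16.6 CPM (limma 2.11 ± 0.08, adjusted p = 1.0e-08). Bcas1, known as a marker of newly formed oligodendrocytes, stood at 123, 122, 44.97 and 136 CPM, against 21.2, 34.1, 3.95 and 24.5 CPM (limma 2.08 ± 0.10, adjusted p = 4.6e-08). Neither gene overlapped between the classes. Fst-negative cells had 72.1, 109, 57.6 and 93.8 CPM of Prss23, a range overlapping that of Atoh1/Fst cells. Their Cdhr1 levels of 138, 122, 83.4 and 70.8 CPM overlapped too. Bcas1 was lower in them in each library, at 66.7, 116, 38.8 and 54.2 CPM. Cells with neither Atoh1 nor Barhl1 had 219, 337, 75.7 and 228 CPM of Prss23, and 1.06, 1.25, 1.36 and 2.07 CPM of Cdhr1. The oligodendrocyte lineage list summed to 9.80 to 23.6 CPM in Atoh1/Fst cells and 12.6 to 20.98 CPM in Otx2-positive cells.

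Phlda1, a gene for a pleckstrin homology-like domain protein, was the highest of these in level, at 492, 519, 242 and 419 CPM in Atoh1/Fst cells, against 110.3, 157, 52.2 and 106 CPM in Otx2-positive cells (limma 1.91 ± 0.07, adjusted p = 5.8e-09). Klf3, a Krüppel-like transcription factor gene, stood at 153, 147, 61.99 and 128 CPM, against 45.4, 56.1, 42.3 and 37.01 CPM (limma 1.54 ± 0.08, adjusted p = 4.6e-08). Both were higher in every library without overlap. Fst-negative cells had 384, 326, 178 and 242 CPM of Phlda1, less than Atoh1/Fst cells in each library. Among extracellular proteins, Sparcl1 was higher by 1.46 ± 0.14 and Hmcn1, which encodes hemicentin, by 1.65 ± 0.10. Hmcn1 stood at 75.1, 33.8, 3.13 and 48.2 CPM, against 17.8, 9.15, 9.62 and 11.5 CPM, the other way in RL e13 replicate 1. Their calls were lost when RL e13 replicate 1 was added (largest limma adjusted p over the alternatives 0.11 for Sparcl1 and 0.30 for Hmcn1). Sparcl1 stood at 64.8, 76.9, 22.9 and 84.3 CPM in Atoh1/Fst cells. It was higher in Fst-negative cells in each library, at 83.9, 100.3, 124 and 111 CPM. Cells with neither Atoh1 nor Barhl1 had 560, 876, 256 and 708 CPM of it. Thsd7b (1.40 ± 0.07), Plcxd3 (1.28 ± 0.08) and Gm38112 (1.88 ± 0.10) completed the 12 highest genes, with limma adjusted p-values of at most 2.1e-07.

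Both D-type cyclins with a role in granule progenitors differed, in opposite directions. Ccnd1 stood at 424, 425, 291 and 324 CPM in Atoh1/Fst cells, against 139, 173, 59.3 and 117 CPM in Otx2-positive cells (limma 1.43 ± 0.06, adjusted p = 1.0e-08). Ccnd2 stood at 511, 389, 607 and 439 CPM, against 2056, 1478, 1016 and 1288 CPM (limma -1.82 ± 0.07, adjusted p = 7.7e-09). The classes did not overlap for either cyclin. Ccnd3 was higher by 0.95 ± 0.06, and of the CDK inhibitor genes Cdkn1a and Cdkn1b were lower (-1.45 ± 0.15 and -0.62 ± 0.07). Cdkn1c was called higher (0.53 ± 0.13), but stood at 99.7, 63.2, 60.8 and 111 CPM, against 49.3, 64.5, 123 and 68.2 CPM, so that 2 of 4 libraries did not go this way. Its call was lost in 6 of 18 alternatives, among them without RL e14 replicate 1 (0.32), and its value was 0.81 without RL e14 replicate 2. Of 11 tested G1 cyclin and CDK inhibitor genes 4, with E2f1, were higher, 3 lower and 4 not called, with a median of 0.07 against 0.02 over all genes tested. The Cdkn1a call was lost without the library block, the Cdkn1b call with RL e13 replicate 1 added and the E2f1 call without RL e14 replicate 1.

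Most genes with the lowest differences belong to differentiating neurons or to the neighbouring rhombic lip lineages. Cartpt, a neuropeptide precursor gene, stood at 0.497, 3.93, 0 and 0.145 CPM in Atoh1/Fst cells, against 37.3, 141, 0 and 38.5 CPM in Otx2-positive cells (limma -3.35 ± 0.18, adjusted p = 6.5e-08). Both classes of RL e13 replicate 1 were at 0, and the call was lost with that library added. Tlx3, a homeobox gene of glutamatergic neurons, varied widely between libraries, with 53.02, 71.7, 0 and 3.05 CPM in Atoh1/Fst cells and 239.7, 347, 0 and 41.4 CPM in Otx2-positive cells. Within each of the 3 fitted libraries it was lower in Atoh1/Fst cells (limma -2.27 ± 0.09, adjusted p = 8.8e-09), a call lost without the library block and with RL e13 replicate 1 added, where both classes were at 0. Ebf1, a helix-loop-helix factor gene of early neurons, stood at 33.2, 26.5, 123 and 42.4 CPM, against 162, 129, 382 and 208 CPM (limma -2.13 ± 0.06, adjusted p = 3.5e-09), without overlap. The growth cone and microtubule genes Gap43 (-1.99 ± 0.07), Dpysl3 (-2.12 ± 0.10) and Stmn2 (-1.79 ± 0.07), Vat1l (-2.34 ± 0.12), the ubiquitin ligase gene Rnf182 (-2.26 ± 0.11) and the phosphatase subunit gene Ppp2r2c (-1.86 ± 0.11) were lower too, with limma adjusted p-values of at most 2.5e-07.

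**Figure D3:**
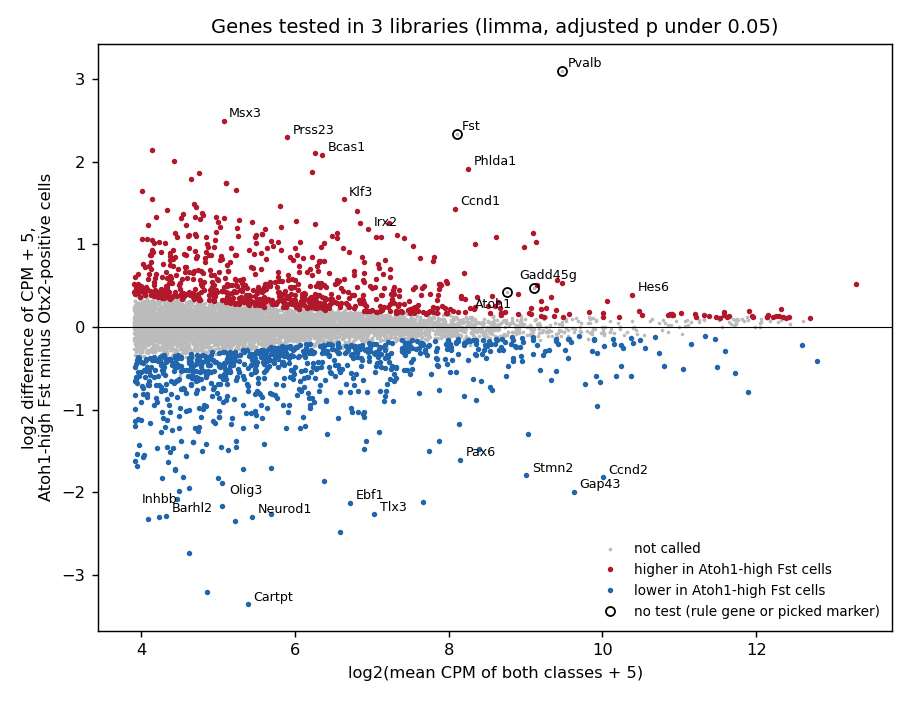
Log2 difference of CPM + 5, Atoh1/Fst cells minus Otx2-positive cells (vertical axis), against log2 of the mean level of both classes plus 5 (horizontal axis), 1 point per gene over 3 libraries. Red genes (731) were called higher, blue genes (795) lower and grey genes were not called, and open circles mark genes that the rule or the choice of markers used and that have no test. Pvalb and Fst lie at the top, and Cartpt, Tlx3, Gap43 and Ccnd2 among the lowest.

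The name granule progenitor fitted some marker genes and not others. Of 17 tested members of the granule cell progenitor list, 4 were higher, 8 lower and 5 not called against Otx2-positive cells, with a median of -0.13. Mfap4 (1.004 ± 0.05), Meis1 and Meis2 and the hedgehog co-receptor gene Boc were higher. Meis2 is also on the list of the glutamatergic cerebellar nuclei. Pax6, a paired-box factor of granule cells, stood at 146, 141, 199 and 119 CPM in Atoh1/Fst cells, against 446, 383, 411 and 436 CPM in Otx2-positive cells (limma -1.61 ± 0.07, adjusted p = 1.5e-08). It did not overlap between the classes. Barhl2, the paralog of Barhl1, was lower, with a log2 difference of -2.28 ± 0.19, with 1.79, 0.884, 0 and 2.45 CPM in Atoh1/Fst cells and 30.4, 37.1, 5.44 and 17.9 CPM in Otx2-positive cells. Nrn1 was also lower in the fitted libraries, while in RL e13 replicate 1 it was higher in Atoh1/Fst cells, at 431 against 320 CPM. Zic1, Zic2, Zic4 and Zic5, zinc finger genes of the dorsal hindbrain, were lower by log2 differences of -0.33 to -0.55, while Uncx, Mycn, Mycl and Gli2 were among those not called. The Boc call was lost in 8 alternatives, among them without RL e13 replicate 2, and the Meis2 call in 3. Calls of Meis1, Zic1 and Zic4 were lost against Otx2-positive cells with Fst UMIs, and those of Nrn1, Zic1 and Zic5 with RL e13 replicate 1 added.

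Of 6 tested genes of the unipolar brush cell lineage, Tlx3, Neurod4 (-1.55 ± 0.13), the calcium channel subunit gene Cacna2d1 (-2.30 ± 0.12) and the receptor gene Erbb4 (-0.55 ± 0.09) were lower and Sema6d and Mgat4c higher (median -1.05). The Sema6d call (0.38) was lost in 7 alternatives, among them without RL e14 replicate 2 (0.25), and the Mgat4c call in 9, among them without RL e13 replicate 2. Lmx1a, a homeobox gene of that lineage and of the roof plate, was under the filter, with 0.206, 0, 3.13 and 0.529 CPM in Atoh1/Fst cells, against 10.5, 8.33, 5.56 and 12.9 CPM in Otx2-positive cells. Calls of Cacna2d1 and Erbb4 were lost with RL e13 replicate 1 added. In that library Cacna2d1 went the other way, at 16.2 against 4.94 CPM, and Erbb4 did not, at 64.1 against 68.9 CPM. Slc17a6, which encodes a vesicular glutamate transporter, stood at 0, 0.525, 10.2 and 1.12 CPM, against 43.2, 35.3, 28.5 and 63.8 CPM (limma -3.21 ± 0.13, adjusted p = 1.5e-08). It did not exceed 1.12 CPM in the Atoh1/Fst cells of the 3 fitted libraries, and the classes did not overlap.

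Proneural and delamination factors were mostly lower. Of 20 tested, 11 were lower, 3 higher and 6 not called, with a median log2 difference of -0.41 (0.02 over all genes). Neurod1, a helix-loop-helix factor of granule neurons, stood at 7.70, 9.54, 0 and 10.9 CPM in Atoh1/Fst cells, against 65.02, 46.2, 32.7 and 92.2 CPM in Otx2-positive cells (limma -2.30 ± 0.14, adjusted p = 1.9e-07). Neurod2 was lower, with a log2 difference of -1.03 ± 0.08, and Ebf2 (0.81 ± 0.12) and the corepressor genes Cbfa2t2 (0.68 ± 0.06) and Cbfa2t3 (0.47 ± 0.05) were higher. Calls of Ebf2 and Cbfa2t3 were lost against Otx2-positive cells with Fst UMIs and with RL e13 replicate 1 added. Insm1, a zinc finger factor of delaminating progenitors, was not called, with 523, 602, 540.4 and 549 CPM, against 589, 646, 489 and 528 CPM (-0.07 ± 0.05, adjusted p = 0.33, limma). In the neuronal differentiation list 9 of 13 were lower, 2 higher and 2 not called (median -1.09). Gap43 stood at 315, 362, 221 and 267 CPM, against 1102, 1358, 524 and 1325 CPM, and Stmn2 at 211, 172, 181 and 294 CPM, against 625, 722, 292 and 1042 CPM. The 2 that went the other way both serve synaptic vesicle release, Syt1 (0.80 ± 0.05) and Snap25 (1.04 ± 0.08).

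Notch pathway genes had more higher than lower calls. Of 13 tested, Dll3, Hes6, Hes1, Hey1 and Maml1 were higher, Dner lower and 7 not called (median 0.29). Hey1 stood at 124, 144, 73.8 and 77.0 CPM in Atoh1/Fst cells, against 77.2, 87.3, 72.9 and 80.8 CPM in Otx2-positive cells. It was thus not higher in RL e13 replicate 2. Hes6, which encodes an antagonist of Hes repressors, was abundant, with 1541, 1505, 1812 and 1485 CPM in Atoh1/Fst cells, against 1253, 1157, 1449 and 1056 CPM in Otx2-positive cells (limma 0.39 ± 0.04, adjusted p = 2.1e-05). Within each library Atoh1/Fst cells were higher, and the call was lost against Otx2-positive cells with Fst UMIs. Dll3, a divergent ligand that acts within the cell, stood at 38.0, 41.6, 76.1 and 32.9 CPM, against 17.01, 21.1, 25.4 and 18.8 CPM (0.82 ± 0.10, adjusted p = 6.7e-05), without overlap. Hes5, a direct Notch target, and the receptor gene Notch1 were not called, with log2 differences of 0.25 ± 0.20 (limma adjusted p = 0.44) and 0.29 ± 0.10 (adjusted p = 0.067). The Hey1 call was lost in 10 alternatives, among them without either e14 library and against comparators matched for Atoh1. The Dner call was lost with RL e13 replicate 1 added, where Dner went the other way, at 22.6 against 12.5 CPM. The Maml1 call (0.41) was lost in 9 alternatives, among them without either e14 library (0.27 without RL e14 replicate 2), and the Hes1 call in 6, among them without RL e14 replicate 1.

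Genes of the G2 and M phases were lower by small amounts. Of 16 G2 and M phase genes 14 were lower and 0 higher, with log2 differences among those called between -0.57 for Ube2c and -0.21 for Top2a and a median of -0.33. The Top2a call was lost in 6 alternatives, among them without RL e14 replicate 1, and its value was 0.056 without the 5% of cells with the most UMIs. Mki67, a proliferation marker, stood at 160.2, 153, 66.6 and 200.3 CPM in Atoh1/Fst cells, against 197, 197, 203 and 245 CPM in Otx2-positive cells (limma -0.31 ± 0.05, adjusted p = 0.00054). Thinned to 8000 UMIs, 36.8%, 30.9%, 23.1% and 35.6% of Atoh1/Fst cells held Mki67 UMIs, against 44.2%, 42.8%, 60.9% and 47.4% of Otx2-positive cells, and unthinned the shares were 43.3%, 36.4%, 21.4% and 41.8%, against 53.2%, 54.1%, 65.2% and 55.4%. The share was lower in Atoh1/Fst cells within each library. Cells with neither Atoh1 nor Barhl1 had 47.6%, 29.1%, 47.04% and 47.3% thinned, so they give no background for it. The Mki67 call was lost with RL e13 replicate 1 added, without the library block and without the 5% of cells with the most UMIs. Of 17 S phase genes 3 were higher, 1 lower and 13 not called. With 18.7% of all genes tested called, nothing about S phase is read from that count.

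Positional genes were all called among the 10 tested, 6 higher and 4 lower. Irx2, an Iroquois homeobox gene, stood at 144, 166, 163 and 193 CPM in Atoh1/Fst cells, against 58.3, 74.8, 78.3 and 80.2 CPM in Otx2-positive cells (limma 1.18 ± 0.06, adjusted p = 4.5e-08). It did not overlap between the classes. The engrailed gene En2 (0.45 ± 0.06), a factor of the midbrain and anterior hindbrain, was higher, as were Meis2 and Nr2f1. Its paralog En1 (0.49 ± 0.15) stood at 129, 94.4, 83.0 and 156 CPM, against 103, 92.9, 55.8 and 68.7 CPM. Without RL e13 replicate 2 the En1 difference was 0.17 and no longer called, and the call was lost in 8 of 18 alternatives. Pax3 was called higher (0.21), but lay at -0.20 and was called lower against Otx2-positive cells matched for Atoh1 and Eomes. Fgf8, a secreted organiser signal, was lower (-1.27 ± 0.15, 5.09, 10.6, 0 and 0.575 CPM against 23.04, 41.2, 1.48 and 4.48 CPM), and its call was lost without the library block and with RL e13 replicate 1 added. Ntf3 (-0.82), Foxp2 (-0.47) and Nr2f2 (-0.38) were lower as well, with calls lost without either e14 library for Ntf3, without RL e14 replicate 2 for Foxp2 (-0.31) and without any 1 of the 3 libraries for Nr2f2. Ntf3 was at -1.23 without RL e13 replicate 2. The Pax3 call was lost without RL e14 replicate 1, and the Nr2f1 call with RL e13 replicate 1 added.

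Of 8 tested genes of the activin pathway, which follistatin acts on, Inhbb alone was called. With 18.7% of all genes tested called, nothing about the pathway is read from that count. Inhbb encodes the beta B subunit of activins and stood at 3.30, 6.24, 18.5 and 5.50 CPM in Atoh1/Fst cells, against 32.8, 44.1, 10.5 and 25.6 CPM in Otx2-positive cells (limma -1.95 ± 0.14, adjusted p = 7.2e-07). RL e13 replicate 1 went the other way, and the call was lost with it added. The receptor genes Acvr2a (0.21 ± 0.09), Acvr2b (-0.08 ± 0.07) and Tgfbr1 (-0.15 ± 0.09) and the effector genes Smad2 (-0.02 ± 0.09) and Smad4 (0.10 ± 0.05) were not called. Of 8 Wnt pathway genes the receptor gene Fzd10 (1.02 ± 0.10), the feedback inhibitor gene Nkd1 (0.53 ± 0.06) and Tcf7l2 were higher. Axin2 (-1.03 ± 0.10) and Sp5 (-0.35 ± 0.05) were lower. Calls of Nkd1, Sp5 and Tcf7l2 were lost without the library block. Of 8 hedgehog pathway genes Boc was higher, Gas1 lower and 6 were not called, among them Ptch1, Smo, Gli2, Gli3 and Sufu. This count too lies near the 18.7% called over all genes tested, and nothing about the hedgehog pathway is read from it. Of 6 BMP pathway genes the antagonist gene Nbl1 was higher and Msx2 and Bmpr1b lower, and these calls were lost against Otx2-positive cells with Fst UMIs. In RL e13 replicate 1 Bmpr1b went the other way, at 15.1 against 10.8 CPM, while Nbl1 (24.5 against 11.8 CPM) and Msx2 (27.0 against 72.8 CPM) did not.

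Of 11 rhombic lip and radial glia genes, Sox2 (0.80 ± 0.12), Nes (0.78 ± 0.08), Slc1a3, Hes1 and Fabp7 were higher and Olig3 (-1.89 ± 0.12), Vim and Mki67 lower. Sox2, a stem cell factor, stood at 128, 84.7, 37.04 and 88.7 CPM in Atoh1/Fst cells, against 49.99, 49.9, 104 and 66.2 CPM in Otx2-positive cells. RL e13 replicate 1 went the other way, and the Sox2, Nes and Slc1a3 calls were lost with it added. The Slc1a3 call was also lost without RL e14 replicate 1. Fabp7 stood at 228, 216, 237 and 274 CPM, against 155, 161, 447 and 233 CPM, also the other way in RL e13 replicate 1. Cells with neither Atoh1 nor Barhl1 had far more of both, 4546, 6303, 4168 and 5859 CPM of Fabp7 and 509, 525, 429 and 514 CPM of Sox2. Olig3 stood at 8.29, 5.86, 23.6 and 12.02 CPM, against 49.4, 27.3, 121 and 65.7 CPM. All 7 tested genes of the dissociation and immediate early list were lower, led by Jun (-1.17 ± 0.07) and Egr1 (-1.03 ± 0.12), and the list summed to 1058 to 1155 CPM in Atoh1/Fst cells, 1536 to 2065 CPM in Otx2-positive cells and 1433 to 2211 CPM in Fst-negative cells. Their part in the other differences was not tested.

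Microglial, meningeal and endothelial markers were near 0 in Atoh1/Fst cells, while lists of other neural lineages were not. Summed over their lists in each library, microglial genes reached 0 to 3.66 CPM, meningeal genes 0 to 2.83 CPM, endothelial genes 1.13 to 5.08 CPM and red blood cell genes 10.4 to 56.01 CPM. Otx2-positive cells had 0 to 1.48, 0 to 2.43, 1.54 to 6.91 and 6.22 to 49.2 CPM of the same lists. Genes of the GABAergic ventricular zone summed to 33.1 to 63.5 CPM in Atoh1/Fst cells, 10.1 to 39.8 CPM in Otx2-positive cells and 52.9 to 267 CPM in Fst-negative cells. Genes of the glutamatergic cerebellar nuclei summed to 86.9 to 500.02, 112 to 162 and 108 to 219 CPM in Atoh1/Fst, Otx2-positive and Fst-negative cells. The upper end in Atoh1/Fst cells was RL e13 replicate 1, where Meis2, a factor of nuclear neurons, stood at 366 CPM over 14 cells, against 28.7, 8.01 and 42.5 CPM in the other libraries. Of the markers of those nuclei, Tbr1 stood in Atoh1/Fst cells at 0.370, 0.352, 0 and 0.122 CPM. Lhx9 stood at 3.48, 0.763, 40.1 and 7.48 CPM and Lhx2 at 4.25, 4.05, 39.9 and 8.80 CPM, both highest in RL e13 replicate 1. Otx2-positive cells had 6.86, 10.2, 11.5 and 9.35 CPM of Lhx9 and 2.94, 2.05, 1.24 and 4.18 CPM of Lhx2. The part of these genes in the other differences was not tested.

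**Figure D4:**
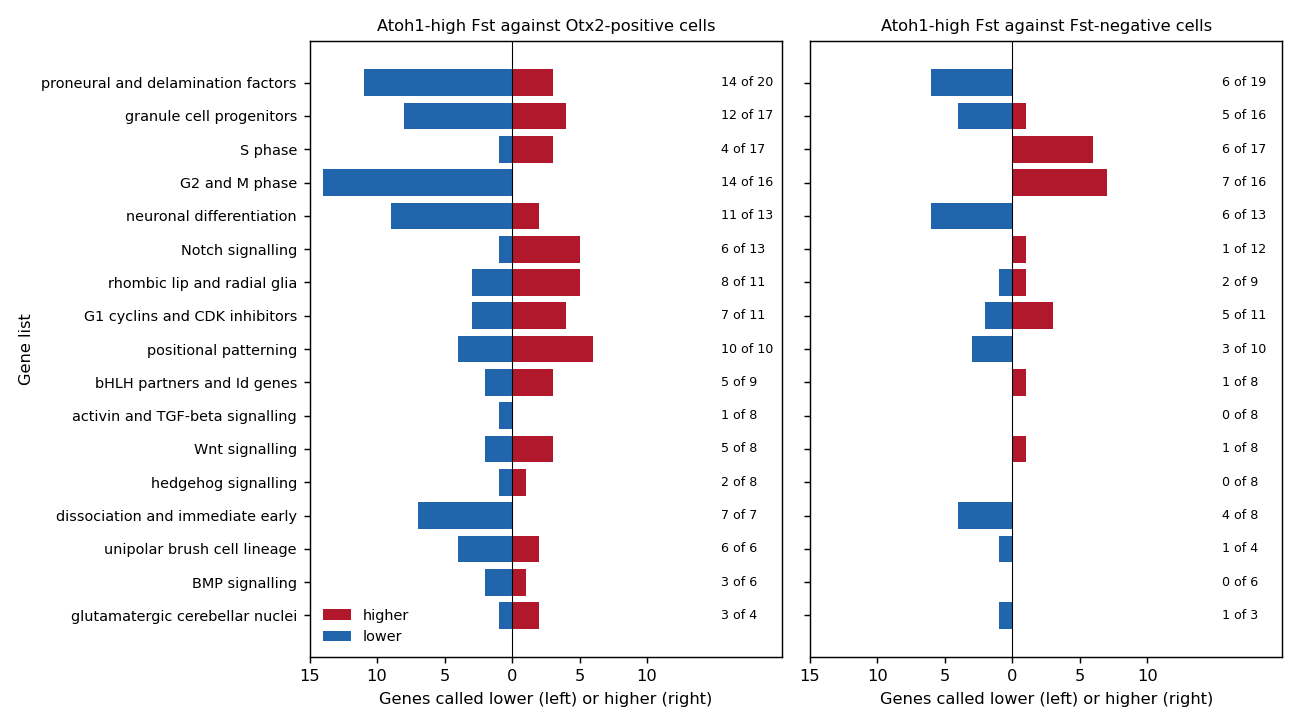
Number of genes of each list (rows) called higher (red, right) or lower (blue, left) in Atoh1/Fst cells, against Otx2-positive cells in the left panel and Fst-negative cells in the right panel, with the called and tested genes written beside each bar. G2 and M phase genes lay on the lower side against Otx2-positive cells (14 of 16) and on the higher side against Fst-negative cells (7 of 16), while neuronal differentiation genes had 9 lower calls of 13 in the left panel and 6 of 13 in the right.

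Part of the difference from Otx2-positive cells depended on which Otx2-positive cells were taken. Against Otx2-positive cells with an Atoh1 ln value of 1.0 or more (257, 172 and 307 cells in the fitted libraries), 574 of 8113 genes were higher (7.08%) and 562 lower (6.93%), 14% in all. Of these, 519 and 496 were among the calls against all Otx2-positive cells. With Eomes at 0 as well, a comparator added after the data had been seen, 422 of 8100 were higher (5.21%) and 348 lower (4.3%), 9.51% in all, of which 359 and 294 were shared. Against Otx2-positive cells with Fst UMIs, 243 were higher and 361 lower, 221 and 283 of them shared. The 12 highest genes kept their calls under these comparators. Of the 12 lowest, Rnf182 lost its call against cells with Fst UMIs. Otx2-positive cells with an Atoh1 ln value of 1.0 or more had 796, 695, 355 and 842 CPM of Gap43. Their Stmn2 stood at 467, 357, 197 and 713 CPM. Both genes lay below their levels in all Otx2-positive cells and above those in Atoh1/Fst cells in each library. Ccnd2 did not move this way, at 2117, 1603, 1045 and 1413 CPM.

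The other comparison set Atoh1/Fst cells against Fst-negative cells, which met the same conditions on Atoh1, Barhl1, Otx2 and Eomes. In the 3 fitted libraries Atoh1/Fst cells had less of the neuronal genes Gap43, Stmn2, Tubb3 and Dcx and of the CDK inhibitor gene Cdkn1c. They had more of the replication gene Ccne1 and of mitotic genes such as Aurkb and Smc4. Over 8092 genes tested in the same 3 libraries, 161 were higher (1.99%) and 116 lower (1.43%), 3.42% in all. List counts against Fst-negative cells are to be read beside these shares. Fst-negative cells numbered only 53, 31, 17 and 61, and RL e13 replicate 1 again did not enter the fit. Their median depth was 14591, 19165, 18688 and 15993 UMIs per cell, below the 16493, 21110, 22965.5 and 18766 of Atoh1/Fst cells. How many zeros of Fst were missed molecules was not tested. The counts depended on single libraries, with 17 higher and 35 lower without RL e14 replicate 1, 51 and 60 without RL e14 replicate 2, and 265 and 155 without RL e13 replicate 2. With RL e13 replicate 1 added they were 3 and 8, and without the library block 8 and 15.

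Cdkn1c, an inhibitor of G1 kinases that marks cells leaving the cycle, had the lowest difference. It stood at 99.7, 63.2, 60.8 and 111 CPM in Atoh1/Fst cells, against 226, 346, 757 and 359 CPM in Fst-negative cells, with no overlap (limma -1.72 ± 0.16, adjusted p = 1.8e-05). Gap43 stood at 315, 362, 221 and 267 CPM, against 1197, 1193, 335 and 771 CPM (limma -1.71 ± 0.07, adjusted p = 3.4e-09), and Stmn2 at 211, 172, 181 and 294 CPM, against 624, 523, 200.1 and 707 CPM (limma -1.45 ± 0.07, adjusted p = 3.1e-08). For both neuronal genes the classes overlapped only through RL e13 replicate 1, and the Stmn2 call was lost with that library added. Tubb3 (-1.02 ± 0.08) and Dcx (-1.01 ± 0.12) were lower too, and 6 of 13 neuronal differentiation genes in all, with 0 higher (median -0.59 against 0.03 over all genes). The Dcx call was lost without RL e14 replicate 1. Ppp2r2c (-1.53 ± 0.14), Tlx3 (-1.67 ± 0.14), Ebf1 (-1.11 ± 0.15) and Igfbp5 (-1.04 ± 0.09) were lower as well, and the Ebf1 call was lost without RL e14 replicate 1. In RL e13 replicate 1 Tubb3 (851 against 646 CPM) and Dcx (87.5 against 36.5 CPM) went the other way. So did Ppp2r2c (24.4 against 14.7 CPM) and Igfbp5 (153 against 117 CPM). Tlx3 (0 against 2.96 CPM) and Ebf1 (123 against 443 CPM) did not. Jun was lower, with a log2 difference of -0.99 ± 0.10, among 4 of 8 dissociation and immediate early genes.

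Some genes of the cell cycle were higher in Atoh1/Fst cells than in Fst-negative cells. Of 17 S phase genes 6 were higher, 0 lower and 11 not called (median 0.62), and of 16 G2 and M phase genes 7 were higher, 0 lower and 9 not called (median 0.51), with Ccnb2, not called, at -0.03. Ccne1, the cyclin of S phase entry, stood at 64.5, 59.6, 149.7 and 60.5 CPM in Atoh1/Fst cells, against 29.6, 21.7, 13.9 and 27.4 CPM in Fst-negative cells (limma 1.10 ± 0.15, adjusted p = 0.00081). It did not overlap. Mki67 stood at 160.2, 153, 66.6 and 200.3 CPM, against 97.5, 91.7, 133 and 144 CPM (limma 0.62 ± 0.10, adjusted p = 0.0023), a call lost without RL e14 replicate 1 and with RL e13 replicate 1 added. Aurkb (0.95 ± 0.15), Smc4 (0.94 ± 0.12) and Cdk1 (0.80 ± 0.13) were also higher, and each call was lost without RL e14 replicate 1. In RL e13 replicate 1 Aurkb (22.8 against 30.9 CPM) and Cdk1 (59.7 against 75.3 CPM) went the other way, and Smc4 (121 against 108 CPM) did not. The called genes Cenpf (104 against 189 CPM), Hmmr (17.7 against 48.2 CPM) and Top2a (233 against 241 CPM) went the other way there too. Clspn had the highest difference (1.40 ± 0.34, adjusted p = 0.037, limma), a call lost in 8 of 14 alternatives. Klf3 (0.98 ± 0.12) and Etv5, an ETS factor gene (1.01 ± 0.15), kept their calls with each of the 3 libraries left out in turn and lost them with RL e13 replicate 1 added.

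Ccnd1 was not called, with 424, 425, 291 and 324 CPM in Atoh1/Fst cells and 419.8, 352, 258 and 168 CPM in Fst-negative cells (limma 0.40 ± 0.12, adjusted p = 0.095). Msx3 stood at 49.4, 71.3, 252 and 84.8 CPM in Fst-negative cells and was not called (limma -0.35 ± 0.15, adjusted p = 0.28). Pax6 and Ccnd2 were lower, with log2 differences of -0.64 ± 0.09 and -0.51 ± 0.08, and the Pax6 call was lost without RL e14 replicate 1 and the Ccnd2 call without either e14 library. Hes6 (0.09 ± 0.05), Dll3 (0.22 ± 0.19), Insm1 (0.11 ± 0.06), Hes5 (-0.33 ± 0.25) and Sox2 (0.27 ± 0.15) were not called. Of 19 proneural and delamination factors 6 were lower and 0 higher. Of 16 granule cell progenitor genes 4 were lower (Meis2 at -0.96, Nrn1 at -0.75, Pax6 and Ccnd2) and Mfap4 higher. In RL e13 replicate 1, left out of the fit, all 4 lower genes went the other way. Meis2 stood there at 366 against 104 CPM, Nrn1 at 431 against 198, Pax6 at 199 against 143 and Ccnd2 at 607 against 347 CPM. Of 12 Notch pathway genes Hey1 alone was called, a call lost without either e14 library. Of 8 activin, 8 hedgehog and 6 BMP pathway genes limma called 0, with 0, 2 and 0 of them at an unadjusted p under 0.05. A gene that was not called is not shown to be equal between the classes.

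Atoh1/Fst cells varied among themselves along their Atoh1 level. Within each fitted library they were ranked by Atoh1 and cut into a lowest, a middle and a highest group of equal size (36 to 132 cells each). Gadd45g stood at 362, 321 and 545 CPM in the lowest groups of both e14 libraries and RL e13 replicate 2, and at 764, 1053 and 1018 CPM in the highest. Hes6 stood at 1289, 1219 and 1349 CPM in the lowest and 1786, 1875 and 1655 CPM in the highest groups, and Pvalb at 945, 1181 and 965 CPM and 1385, 1779 and 1326 CPM. All 3 genes were higher in the highest group than in the lowest in each of these libraries. In RL e13 replicate 1, with groups of 4 and 5 cells, Pvalb was higher in the highest group as well (1041 CPM, against 161 CPM in the lowest), while Gadd45g (364 against 405 CPM) and Hes6 (1737 against 2093 CPM) were not. Mki67 ran the other way, with 220.2, 252 and 318 CPM in the lowest and 51.9, 42.2 and 117 CPM in the highest groups, as did Gap43 (460.4, 465 and 464 against 242, 190.5 and 119 CPM) and Stmn2 (306, 226 and 502 against 132, 61.0 and 135 CPM). In RL e13 replicate 1 Gap43 stood at 302 CPM in the lowest and 178 CPM in the highest group, Stmn2 at 153 and 303 CPM, and Mki67 at 0 in both. Median depth was 16941, 21622 and 19253 UMIs in the lowest groups and 15160, 19934 and 17632 in the highest. Cells of 1 library are not replicates, so these levels have no test.

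**Figure D5:**
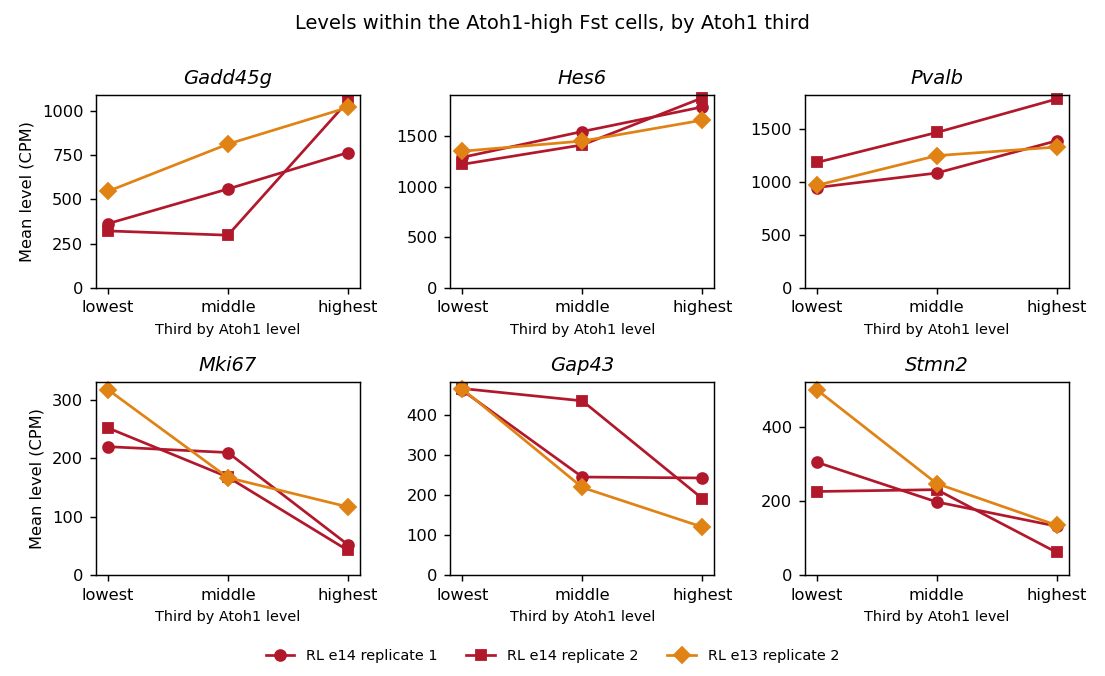
Mean level in CPM (vertical axes, from 0) of 6 genes in Atoh1/Fst cells split within each library by Atoh1 level into lowest, middle and highest groups (horizontal axes), with 1 line for each of the 3 fitted libraries. Gadd45g, Hes6 and Pvalb lie higher, and Mki67, Gap43 and Stmn2 lower, in the highest group than in the lowest in all 3 libraries.

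Pvalb and Gap43 also varied with the number of Fst molecules. Cells with 1 Fst UMI averaged 750.2, 859 and 656 CPM of Pvalb in the same 3 libraries, those with 2 to 4 933, 1466 and 1119 CPM, and those with 5 or more 1324, 1558 and 1249 CPM. For Gap43 the levels were 662, 1029 and 582 CPM with 1 UMI, 459, 602 and 420.02 CPM with 2 to 4 and 169, 182 and 187 CPM with 5 or more. Pvalb was higher and Gap43 lower at each step in each of the 3, the smallest class holding 9 cells. In RL e13 replicate 1, with classes of 4, 4 and 6 cells, Gap43 ran the other way, at 157, 231 and 257 CPM, and Pvalb stood at 269, 1011 and 409 CPM without an order. Cells with Mki67 UMIs (81, 40 and 165) had less Gadd45g than those with none (106, 70 and 230), at 356, 478 and 625 CPM against 720.0, 606 and 912 CPM. They also had less Ccnd2, at 279.99, 273 and 346 CPM against 687, 455 and 505 CPM. In RL e13 replicate 1 the 3 cells with Mki67 UMIs had 517 CPM of Gadd45g and 333 CPM of Ccnd2, against 324 and 682 CPM in the 11 with none. In the 3 fitted libraries their median depth was higher, 19806, 25907.5 and 21313 UMIs against 15374.5, 19672 and 17380.

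Whether the differences between classes changed with age was examined with RL e13 replicate 1 included. For the difference between Atoh1/Fst and Otx2-positive cells, 0 of 8160 genes differed between e14 and e13 by limma, with 159 at an unadjusted p under 0.05. For the difference from Fst-negative cells 0 of 8157 genes did, with 279 at an unadjusted p under 0.05. With 2 libraries for each age, and 14 Atoh1/Fst cells in RL e13 replicate 1, these counts do not show that the ages are alike.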

How the data were processed

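Single-cell libraries of mouse cerebellum were made with 10x Chromium 3′ kits, per the labels' protocols, and Cell Ranger with build mm10 is listed per the submitters' processing notes. How cells were filtered is not given in the sources used. The authors deposited natural log values for 15971 genes in 6987 cells and a table giving each cell's library. The batch matching no title was taken as EomesCreER e16 by elimination. Back-transformed values summed to 10000 per cell, and all 29540669 values above 0 (100%) came out as whole UMI counts within 0.01. Gene positions are from GENCODE vM21.

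Members and gene lists were chosen with earlier results of these data known. Classes with at least 20 cells in a library were averaged and scaled to 1000000 (CPM). Genes averaging at least 10 CPM were tested with limma 3.58.1 (R 4.3.3) on log2(CPM + 5), with the library as a block and Benjamini-Hochberg adjustment over all genes tested (threshold 0.05). The library pairs the classes, since both come from the same library. Cells are not replicates, and p-values measure how the difference between classes varied over libraries, a spread that may be technical. No doublet caller was run. The limma fit of both class comparisons was checked on simulated data, while the age model and the permutation of shares were not. In the setting of Otx2-positive cells, 84.8% of simulated log2 changes of 1.0 and 8% of those of 0.5 were called. In that of Fst-negative cells these were 53% and 12%. Of unchanged genes 0.076% and 0.13% were called. Named genes were the 12 highest and 12 lowest called genes with 50 CPM or more and 1 direction in every fitted library, up to 4 called genes per list, and a set named throughout. Other list members were named after their values were seen, and the results of some genes are not reported here. Alternatives changed the block, pseudocount, filter, scaling, cells, thresholds, comparator and libraries.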

Additional observations from a re-analysis of the deposited data

How the results depend on the processing

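Counts of called genes (limma, adjusted p under 0.05) moved with several settings, the 731 higher and 795 lower against Otx2-positive cells and the 161 and 116 against Fst-negative cells. Against Otx2-positive cells they were 148 and 185 with 10 or more cells per class, which adds RL e13 replicate 1, 347 and 384 with a mean of 50 CPM or more, which tests fewer genes, and 195 and 267 with no replicate block. They were 443 and 438 with Eomes at 0 in the comparator, 243 and 361 with Fst UMIs in it, and 422 and 348 with Atoh1 and Eomes matched, added after seeing the data. Leaving out 1 library each gave 528 to 614 and 637 to 688. Against Fst-negative cells they were 3 and 8 with 10 or more cells, 25 and 43 with no filter, 8 and 15 with no replicate block, and 51 and 31 with Atoh1 at 1.5 or more, where RL e14 replicate 2 dropped out. With a mean of 50 CPM or more 77 were higher, with the rule on thinned cells 182 were lower, and leaving out 1 library each gave 17 to 265 and 35 to 155. Where no setting's construction shows it, the cause was not tested.

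The share of Atoh1/Fst cells was 16.4%, 15.6% and 25.2% in both e14 libraries and RL e13 replicate 2 with Atoh1 at 1.5 or more. For cells with Atoh1 and Barhl1 UMIs, the difference between e14 and e13 was -3.66 percentage points, the same with a replicate block, and 9.31 by age tag. As a share of all cells it was 4.51 by title and 16.2 by age tag. Against Otx2-positive cells Boc turned to -0.045 with Fst UMIs in the comparator, Hes5 to -0.011 with 10 or more cells and -0.18 with Eomes at 0 (-0.14 to 0.59 leaving out 1 library each, negative without RL e14 replicate 1), Hes1 to -0.0029 with Eomes at 0, Mgat4c to -0.065 with Atoh1 and Eomes matched and -0.19 with Fst UMIs, Pax3 to -0.098 with 10 or more cells, -0.20 with Atoh1 and Eomes matched, -0.040 with Atoh1 matched and -0.084 with Eomes at 0, Top2a to 0.056 without the 5% of cells with the most UMIs, and Insm1 to 0.020 with Atoh1 and Eomes matched and 0.026 with Eomes at 0. Against Fst-negative cells Neurod2 turned to 0.0019 and Sox2 to -0.20 with Atoh1 at 1.5 or more, Sox2 to -0.34 and Notch1 to -0.18 with 10 or more cells, and leaving out 1 library each Dll3 spanned -0.023 to 0.43, negative without RL e14 replicate 2, and Hes5 -0.58 to 0.12, positive without RL e13 replicate 2. Of these genes, Boc, Hes1, Mgat4c, Pax3, Top2a and Neurod2 had been called. Classes of 31 to 61 Fst-negative cells per library limit the precision of that comparison.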
